A study of Rattus norvegicus with 24 samples.

Results

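The 8 arrays described here came from the brain stems of untreated male RccHan Wistar rats, 4 rats killed on day 3 and 4 killed on day 1. They were taken by their titles from the 24 arrays of the series, in which 6 groups of 4 rats received either untreated chow or chow with 400 ppm rotenone, an inhibitor of mitochondrial complex I, for 1, 3 or 14 days. The rats were 7 to 8 weeks old, and RNA from 70 mg of brain stem was hybridized to Affymetrix RTA 1.0 arrays, with 1 array per rat. The rats were housed 2 or 3 to a cage, and the labels do not give the cage of each rat. The replicates were separate rats according to the labels. Controls carried no treatment on either day, so the comparison of day 3 with day 1 asks how far control brain stems differed between necropsies. Replicates 1 and 3 of control day 1 held transcripts of the cerebellum. These arrays were used to describe genes of cerebellum against brain stem, and the day 3 arrays were compared with all 4 day 1 arrays and, separately, with the remaining replicates 2 and 4.

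The brain stem connects the spinal cord with the forebrain and holds the nuclei of most cranial nerves, the noradrenergic locus coeruleus, the serotonergic raphe nuclei and the inferior olive. The cerebellum lies against its dorsal surface, and most of its cells are granule neurons, which excite Purkinje neurons through parallel fibres. Hox genes are expressed from the second rhombomere of the embryonic hindbrain backwards, and the midbrain, the forebrain and the foremost part of the hindbrain, from which the cerebellum arises, do not express them.

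All values below are log2 intensities of transcript clusters, which are the units of the array that roughly correspond to genes. Of 68842 clusters, 23446 had 1 gene symbol, and each of the 22093 genes was represented by its brightest cluster. The array medians lay between 72.9 and 79.9 on the linear scale in the 8 control arrays, and the median cluster had a mean log2 intensity of 6.24 over the 24 arrays. Levels of different genes were not compared, because probes differ in brightness. The label brain stem was checked here with a single marker of the hindbrain. Slc6a5, the glycine transporter of hindbrain inhibitory neurons, had values of 13.89, 13.78, 14.04 and 13.73 in the day 3 arrays, against 12.98, 13.72, 9.73 and 13.89 in replicates 1 to 4 of day 1. Replicate 3 of day 1 thus stood apart in this marker of brain stem neurons as well. Because these are bulk samples, fewer cells of a type and less RNA per cell cannot be told apart.

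Promoters of 5 genes are shown because the levels of these genes separate the arrays clearly or, in the case of Ciart, because it carried the most matches to the circadian E-box among the clock genes. Each sequence is 300 bases, of which 250 lie before and 50 after the start of the gene in RefSeq (GRCr8), read 5′ to 3′ on the strand of the gene. Capitals mark matches on either strand to CAGATG, an E-box of the type bound by neurogenic factors, to AGGTCA, the half-site of ROR and other nuclear receptors, and to TTGGCA, a half-site of nuclear factor I, or, in Ciart, to the circadian E-box CACGTG. Gabra6 (chr10:27327185-27327484, minus strand), Pcp2 (chr12:6481258-6481557, minus strand) and Neurod1 (chr3:84770405-84770704, minus strand) were high in replicates 1 and 3 of day 1, Trh (chr4:126301713-126302012, minus strand) was low in them, and Ciart (chr2:186112197-186112496, minus strand) belongs to the clock genes.
Gabra6: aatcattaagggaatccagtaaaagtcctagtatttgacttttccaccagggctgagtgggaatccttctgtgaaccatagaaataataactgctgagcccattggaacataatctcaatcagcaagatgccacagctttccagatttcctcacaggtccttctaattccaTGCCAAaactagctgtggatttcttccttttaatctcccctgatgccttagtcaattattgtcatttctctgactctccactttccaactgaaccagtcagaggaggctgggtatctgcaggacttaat
Pcp2: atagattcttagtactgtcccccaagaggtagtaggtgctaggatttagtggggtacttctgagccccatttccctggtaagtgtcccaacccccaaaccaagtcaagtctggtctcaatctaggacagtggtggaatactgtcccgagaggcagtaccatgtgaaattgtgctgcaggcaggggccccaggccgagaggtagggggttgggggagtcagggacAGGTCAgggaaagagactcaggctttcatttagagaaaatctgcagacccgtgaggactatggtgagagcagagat
Neurod1: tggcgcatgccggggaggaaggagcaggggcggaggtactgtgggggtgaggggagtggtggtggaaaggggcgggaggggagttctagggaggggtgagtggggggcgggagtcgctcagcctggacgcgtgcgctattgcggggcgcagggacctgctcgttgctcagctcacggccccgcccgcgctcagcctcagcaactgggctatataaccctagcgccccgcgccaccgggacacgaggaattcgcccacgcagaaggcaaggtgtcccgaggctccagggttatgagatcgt
Trh: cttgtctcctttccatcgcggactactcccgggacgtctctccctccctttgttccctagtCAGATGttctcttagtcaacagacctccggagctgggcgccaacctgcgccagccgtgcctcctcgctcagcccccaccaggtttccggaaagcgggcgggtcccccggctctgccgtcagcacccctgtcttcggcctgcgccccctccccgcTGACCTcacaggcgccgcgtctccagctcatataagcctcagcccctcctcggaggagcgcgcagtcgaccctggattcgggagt
Ciart: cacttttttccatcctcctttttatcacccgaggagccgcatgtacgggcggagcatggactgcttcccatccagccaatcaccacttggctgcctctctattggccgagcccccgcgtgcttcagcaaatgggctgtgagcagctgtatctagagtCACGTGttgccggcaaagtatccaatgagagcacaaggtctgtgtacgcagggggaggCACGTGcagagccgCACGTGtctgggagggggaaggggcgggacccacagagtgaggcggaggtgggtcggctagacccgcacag

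Gabra6 held 1 match to TTGGCA on the opposite strand, and Pcp2 held 1 match to AGGTCA. Trh held 1 match to CAGATG and 1 to AGGTCA, and none of the 3 motifs was found in the window of Neurod1. Among all 33469 promoters of this length, 16.6% held CAGATG, 16.2% held AGGTCA and 14.0% held TTGGCA. Of the 15 genes with the largest excess in replicates 1 and 3, 12 had a promoter in the table, and 2 of these held CAGATG, 1 AGGTCA and 2 TTGGCA. Of the 15 genes with the largest deficit, 12 had a promoter, and 2 held CAGATG, 3 AGGTCA and 1 TTGGCA. The matches do not show that a factor binds there.

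Genes of cerebellar neurons set replicates 1 and 3 of day 1 far apart from the other 6 control arrays of days 3 and 1. A cluster was counted as higher where the lower of these arrays lay at least 1 log2 unit above the highest of the other 6, and as lower in the mirrored case. Higher were 291 clusters (0.423% of all), among them 94 genes (0.425% of genes), and lower were 18 clusters (0.0261%), among them 11 genes (0.0498%). Of the 291 clusters, 192 had no gene symbol and 253 were at or above the median level. Since the arrays were set apart for these transcripts, the values are given without a test. At the margin, Sel1l3 (1.00) was the last gene counted as higher and Zfp385d (0.99) the first left out, and C1ql1 (1.02) was the last gene counted as lower and Epgn (0.98) the first left out.

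Gabra6, the GABA-A receptor subunit of cerebellar granule cells, had values of 15.62 and 14.86 in replicates 1 and 3, against 6.29, 6.18, 6.69 and 7.26 in the day 3 arrays and 8.92 and 8.71 in replicates 2 and 4 of day 1. On the linear scale this was 400 and 236 times the median of the 6 other arrays. Neurod1, a transcription factor of granule neurons, had values of 14.62 and 13.53 in replicates 1 and 3, against 6.86, 6.85, 6.97 and 7.07 on day 3 and 8.31 and 7.76 in the remaining day 1 arrays. Both genes were thus highest by a wide margin in replicates 1 and 3, lowest on day 3 and between these in replicates 2 and 4. Cbln1 and Cbln3 encode secreted cerebellins that join parallel fibres to Purkinje cells. Cbln3 had values of 12.48 and 11.68 in replicates 1 and 3, against 6.93 to 7.65 in the other 6 arrays, and Cbln1 had 12.90 and 12.31, against 8.53 to 9.53. Fat2, a giant cadherin of parallel fibres, had 11.86 and 11.06, against 6.24 to 7.25. Il16, whose long form is made by granule neurons, had 10.64 and 9.97, against 6.08 to 6.68. In each of these genes replicate 1 was above replicate 3. Of 22 granule cell genes listed, 21 were measured, and 18 were above the other 6 arrays in both replicates, whereas this applied to 9.19% of all genes. The exceptions were Barhl1, Slc17a7 and Nfia. Slc17a7, the vesicular glutamate transporter, also marks other neurons of the hindbrain, and it had 12.69 and 11.26 in replicates 1 and 3, against 10.88 to 12.48 in the other 6 arrays, so that replicate 3 lay within their range.

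Most Purkinje cell genes were also high in both arrays. Car8, which binds the receptor for inositol trisphosphate, had values of 13.82 and 13.70 in replicates 1 and 3, against 8.02 to 9.53 in the other 6 arrays. Itpr1, that receptor itself, had 13.92 and 13.70, against 9.23 to 9.90. Pcp2, a regulator of G protein signalling in Purkinje cells, had 9.74 and 9.30, against 5.83 to 6.52, and Ppp1r17, a phosphatase inhibitor of the same cells, had 10.72 and 10.41, against 7.13 to 7.69. For these 4 genes the arrays lay closer to each other than for the 6 granule cell genes above. Of 23 Purkinje cell genes listed, 20 were measured and 13 were above the other 6 arrays in both replicates. Aldoc and Pcp4, which other cells of the brain express at high levels, were among those that were not. Foxp2 and Cck were also among them. In replicate 3 they had 9.90 and 8.33, above the other 6 arrays. In replicate 1 they had 7.53 and 6.40, within the ranges of 7.41 to 8.47 and 6.29 to 7.00. Among 13 genes of Bergmann glia and cerebellar interneurons, 6 were higher in both. The largest gap among these was that of Eomes, a transcription factor of unipolar brush cells, with 9.57 and 8.36 in replicates 1 and 3, against 5.65 to 5.99 in the other 6 arrays. The remaining genes among the 15 with the largest gaps were Cnpy1, Cadps2, a protein of dense-core vesicle release, Exph5, an effector of Rab27, and the scaffold gene Cnksr2, with gaps between 2.26 and 2.91.

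**Figure D1:**
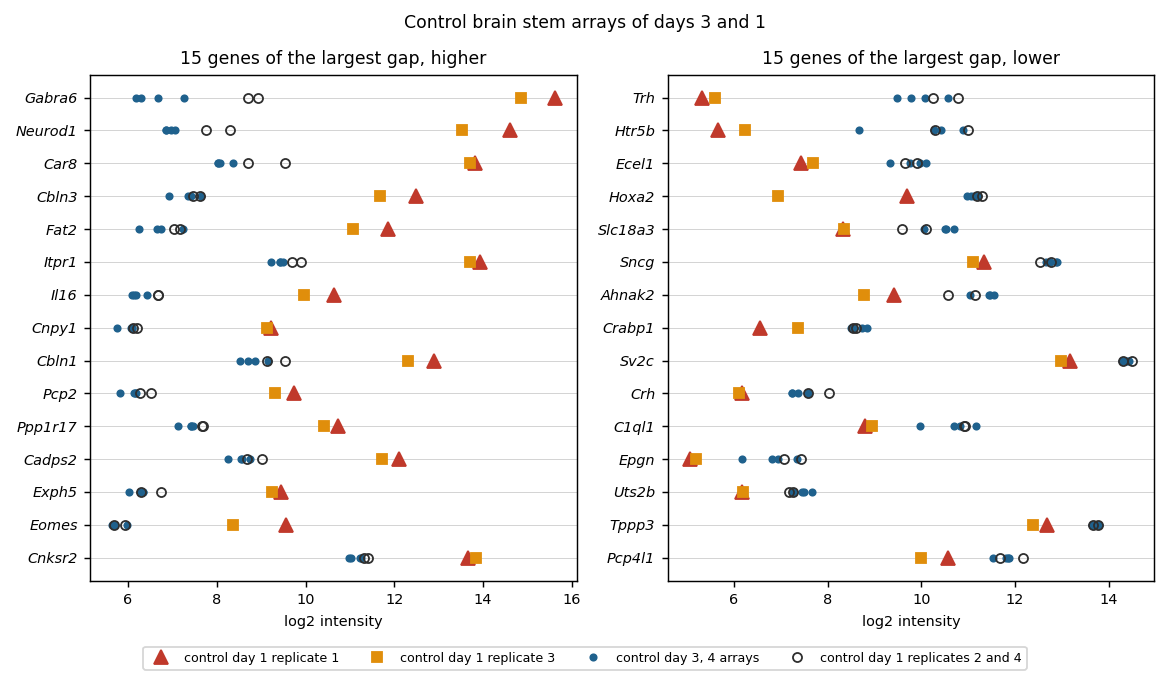
Log2 intensity (x axis) of the 15 genes with the largest gap in each direction (y axis), with triangles for control day 1 replicate 1, squares for replicate 3, filled circles for the 4 day 3 arrays and open circles for day 1 replicates 2 and 4. Gabra6 lies at 15.62 and 14.86 in replicates 1 and 3, and Trh at 5.33 and 5.60, away from the other 6 arrays in opposite directions.

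The excess was further described on the linear scale, as the intensity above the median of the other 6 arrays. For the 13 granule cell genes with a gap of at least 1, the excess in replicate 3 divided by that in replicate 1 had a median of 0.59, with a range of 0.412 for Zic2 to 1.06 for Tiam1. For the 8 Purkinje cell genes with such a gap the median was 0.883, with a range of 0.44 for Slc1a6 to 3.73 for Rgs8. The ratio for Car8 was 0.917 and that for Gabra6 was 0.59. Rgs8, a regulator of G protein signalling, is also expressed outside the cerebellum. The ranges of the lists overlapped, that of the Purkinje cell genes was the wider, and the difference between the lists was not tested.

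Genes of brain stem neurons were low in the same arrays. Trh, thyrotropin-releasing hormone, which medullary raphe neurons make in rats, had values of 5.33 and 5.60 in replicates 1 and 3, against 9.49, 10.57, 9.77 and 10.09 on day 3 and 10.78 and 10.25 in the remaining day 1 arrays. Htr5b, a serotonin receptor gene, had 5.66 and 6.25, against 8.68 to 11.00 in the other 6 arrays. Neither gene overlapped between the 2 arrays and the other 6. Crh and C1ql1 are made by inferior olive neurons, in mice for C1ql1, whose product marks climbing fibre synapses. Crh had 6.17 and 6.10 in replicates 1 and 3, against 7.23 to 8.04, and C1ql1 had 8.79 and 8.96, against 9.97 to 11.17. Hoxa2, which patterns the second rhombomere and the segments behind it, had 9.70 and 6.94, against 10.98 to 11.31, so that replicate 3 lay well below replicate 1. Slc18a3, the vesicular acetylcholine transporter, had 8.34 and 8.36, against 9.58 to 10.70. Ecel1, a neuronal peptidase, had 7.43 and 7.68, against 9.34 to 10.11. The others of the 15 were Sncg, Ahnak2, Crabp1, Sv2c, Epgn, Uts2b, Tppp3 and Pcp4l1, with gaps between 0.96 and 1.19. Against the other 22 arrays of the series, 217 clusters were higher but 0 were lower by the same rule, and Trh, for example, was as low as 5.83 in 1 of the 16 treated or day 14 arrays.

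Counts over the lists divided in the same way. Of 18 measured Hox genes, 12 were below the other 6 arrays in both replicates, and of 10 genes of motor and cholinergic neurons 8 were, against 15.5% of all genes. Of 9 genes of glycine and GABA neurons, 5 were lower and 1 was higher in both. Astrocyte genes were lower in 6 of 14, microglial genes in 2 of 15 and oligodendrocyte genes in 3 of 18.

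The 2 arrays differed from each other as well, and the genes in this and the next paragraph were singled out after their values were seen. Taken alone, replicate 3 had 818 clusters at least 1 log2 unit above the other 6 arrays (1.19% of all) and 183 below (0.266%), and replicate 1 had 356 above (0.517%) and 67 below (0.0973%). In replicate 3, Tfap2d, a transcription factor of the dorsal midbrain in mice, had a value of 11.44, against 5.44 in replicate 1 and 4.90 to 5.53 in the other 6 arrays. Tcf7l2, a Wnt effector of thalamic and midbrain neurons, had 13.65, against 8.41 and 8.35 to 8.87. Nrgn, a calmodulin-binding protein of forebrain neurons, had 14.81, against 9.26 and 8.82 to 9.44. None of the 16 other arrays of the series reached these values, the highest being 5.66 for Tfap2d, 9.21 for Tcf7l2 and 9.81 for Nrgn. Also high in replicate 3 were Lhx9, a LIM homeobox gene, Camk2a, a kinase of excitatory synapses, and Gad1, the enzyme that makes GABA. They had 9.24, 12.60 and 14.58, against 5.72 to 6.01, 9.68 to 10.42 and 12.02 to 12.51 in the other 6 arrays. In the opposite direction, Slc6a5 had 9.73 in replicate 3, against 12.98 in replicate 1 and 13.72 to 14.04 in the other 6. Of 12 measured midbrain and forebrain genes, which include Tcf7l2 and Lhx9, 7 were above and 5 below the other 6 arrays in replicate 3. Over all genes, 20.4% were above and 34.4% below in this replicate, so the 5 lower genes lay near the general share. Among the 5 was Pou4f1, a transcription factor of midbrain and sensory neurons, with 7.29, against 7.91 to 8.83. Myelin genes were low in replicate 3 throughout. All 18 measured oligodendrocyte genes were below the other 6 arrays, with a median difference of -0.99, whereas in replicate 1 the median was 0.04 and 3 genes were below, compared with 34.4% and 26.3% of all genes. Klk6, a protease of oligodendrocytes, had 12.71, against 14.84 to 15.17, and Ugt8, which makes the myelin lipid galactosylceramide, had 15.51, against 16.86 to 17.03. Cholesterol synthesis genes were below the other 6 arrays in 18 of 18 in replicate 3 and in 15 of 18 in replicate 1.

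In replicate 1, serotonergic genes were lower and choroid plexus genes higher than in most of the other control arrays. Tph2, the enzyme of serotonin synthesis in neurons, had a value of 6.36 in replicate 1, against 10.93 in replicate 3 and 11.18 to 12.32 in the other 6 arrays. Slc6a4, the serotonin transporter, had 6.60, against 10.18 and 9.84 to 11.17. Low values of Tph2 also occurred among the 16 other arrays, whose lowest was 6.55. The noradrenergic genes Dbh, Th and Slc6a2 went the other way and were higher in both arrays. Of 15 measured monoaminergic genes, 3 were above the other 6 arrays in both replicates, compared with 9.19% of all genes. Below them in both were 6 of the 15, compared with 15.5%. Pnmt was among these, with 5.90 and 5.97 in replicates 1 and 3, against 6.87 to 7.23. Dbh, which converts dopamine to noradrenaline, had 9.15 and 10.50 in replicates 1 and 3, against 7.15 to 8.08, Th, tyrosine hydroxylase, had 10.77 and 11.82, against 9.03 to 9.91, and Slc6a2, the noradrenaline transporter, had 8.28 and 9.10, against 6.59 to 7.16. For Dbh and Slc6a2, the excess in replicate 3 was 3.22 and 2.26 times that in replicate 1. The 16 other arrays spanned wider ranges, with highest values of 11.35 for Dbh, 12.76 for Th and 9.84 for Slc6a2, above both replicates. Ttr, transthyretin, the main secreted protein of choroid plexus, was variable on both days, with 10.29, 9.66, 15.18 and 8.23 on day 3, against 15.56, 10.43, 7.37 and 13.52 in replicates 1 to 4 of day 1. Replicate 3 of day 1, which was high in cerebellar genes, had the lowest Ttr of the 8 arrays, and replicate 3 of day 3 had the second highest. The 12 choroid plexus genes summed to 2828, 2300, 39840 and 2008 on day 3, against 53810, 3233, 1258 and 14170 in replicates 1 to 4 of day 1, and 9 of the 12 were above the other 6 arrays in replicate 1 and 1 in replicate 3, compared with 17.3% and 20.4% of all genes. The sum reached 113700 among the 16 other arrays.

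**Figure D2:**
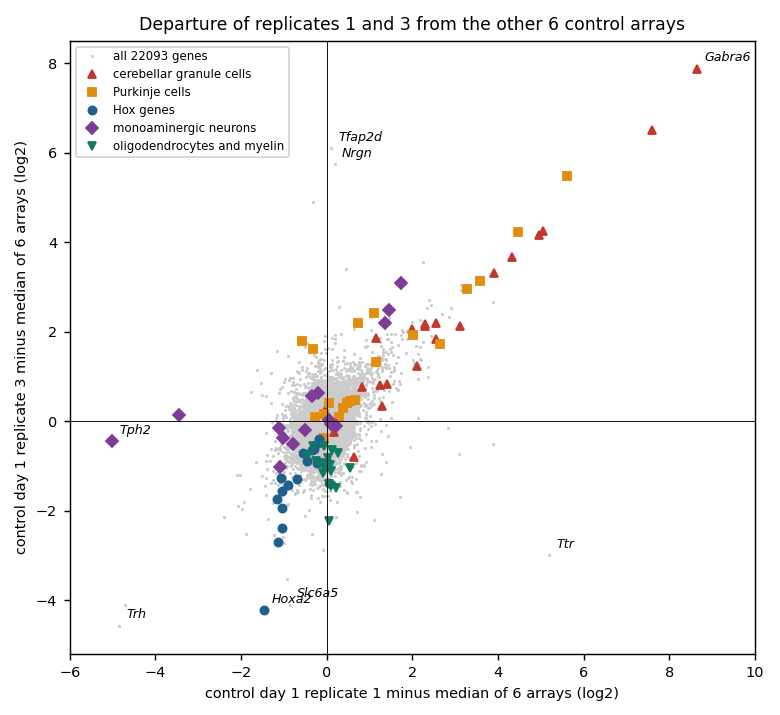
Difference of control day 1 replicate 1 (x axis) and of replicate 3 (y axis) from the median of the other 6 control arrays of days 3 and 1, in log2 units, for 22093 genes (grey) and for 5 lists (symbols). Most granule and Purkinje cell genes lie at the upper right with Gabra6 at 8.64 and 7.88. The 12 Hox genes below the other 6 arrays in both replicates lie at the lower left, Tfap2d and Nrgn depart in replicate 3 and Tph2 in replicate 1.

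In replicates 2 and 4 of day 1, most but not all of the same genes had a small excess over day 3. With the median of the day 3 arrays as the baseline, the linear excess of replicate 2 was a median of 2.37% of that of replicate 1 over the 13 granule cell genes, with a highest value of 7.39% for Diras2, and that of replicate 4 was a median of 1.02%, with a highest value of 5.83% for Zic1 and values below 0 for Etv1 (-1.09%) and Tiam1 (-2.08%). For 8 Purkinje cell genes the medians were 2.54% and 1.01%, the highest values were 12.7% and 15.3%, both for Calb1, and Rora had -0.154% in replicate 2. Gabra6 alone gave 0.787% and 0.656%. The summed linear intensity of the 21 granule cell genes was between 33410 and 36210 in the day 3 arrays, against 35750 and 35190 in replicates 2 and 4 and 177300 and 106600 in replicates 1 and 3 of day 1. By this sum replicates 2 and 4 did not leave the range of day 3. Across the 16 other arrays of the series the sum lay between 32060 and 41580.

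With all 4 arrays of each day, the most negative differences between day 3 and day 1 included those of Gabra6, Neurod1 and Car8, but 0 of 68842 clusters passed limma (adjusted p under 0.05, 0% of clusters). The lowest adjusted p was 0.45. At an unadjusted p under 0.05 there were 5612 clusters (8.15%), of which 3079 were higher and 2533 were lower on day 3, and a least squares fit without moderation gave 5920 such clusters and 0 after adjustment. The count depended on 1 array. Without replicate 4 of day 1, 231 clusters passed, 54 higher and 177 lower on day 3, and 103 of the 177 were among the 291 clusters with the cerebellar gap. The day 1 arrays left in that setting include replicates 1 and 3, which were set apart for cerebellar transcripts, so these 103 cannot test the day. The mean of the granule and Purkinje cell genes was added as a covariate only with all arrays, where 0 passed with it and 0 without it. Whether the 231 clusters would pass with this covariate was not tested.

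The 10 genes with the smallest p included the cerebellar genes Gabra6 and Car8, and none passed the test (adjusted p = 0.45 for each, limma). Gabra6 averaged 6.60 ± 0.49 on day 3 and 12.0 ± 3.7 on day 1 (SD, n = 4 each), a difference of -5.42 ± 1.16 (SE), and Car8 averaged 8.12 ± 0.16 on day 3 and 11.4 ± 2.7 on day 1. The SD of the day 1 group shows the division between the arrays. In the next 3 genes, too, the day 1 arrays spread more widely than the day 3 arrays. Cox4i1, a subunit of cytochrome c oxidase, had values of 12.05, 12.05, 12.06 and 12.06 on day 3, against 11.56, 11.66, 11.34 and 11.90 in replicates 1 to 4 of day 1, a difference of 0.44 ± 0.09 (SE). Uts2, urotensin 2, a peptide of cholinergic motor neurons, had 7.29, 6.91, 7.09 and 7.10 on day 3, against 6.06, 6.16, 5.95 and 6.79 on day 1, a difference of 0.86 ± 0.18. Maf, a transcription factor, had 8.82, 8.90, 8.86 and 8.91 on day 3, against 9.83, 9.45, 10.71 and 9.18 on day 1, a difference of -0.92 ± 0.21. The groups did not overlap in these 3 genes, which gives the smallest p an exact permutation test of 4 against 4 arrays allows, 0.029 (two-sided). Over all clusters, 2.38% were higher and 1.53% lower on day 3 without overlap. For Cox4i1 the order within day 1, with replicate 3 lowest and replicate 4 highest, was the same as that of Uts2. Guk1, guanylate kinase, B3galt5, a galactosyltransferase, and Gstt3, a glutathione transferase, had differences of 0.40, 0.44 and 0.52. The odorant receptor genes Or5ak24 and Or5b106 had differences of 0.90 and 0.81 at levels below that of the median cluster.

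Without replicates 1 and 3 of day 1, 0 clusters passed limma and the lowest adjusted p was 1.00. At an unadjusted p under 0.05 there were 1656 clusters (2.41%), 982 higher and 674 lower on day 3, and 1633 without moderation. Fitted values were small, with a median absolute difference of 0.10 over all clusters and 82 clusters at 1 log2 unit or more. The day 3 arrays lay above both day 1 arrays in 6.17% of clusters and below both in 4.85%. With 4 arrays against 2, the smallest two-sided exact p for a single gene is 0.067, so that no gene could pass on its own. Without replicate 4 of day 1 as well, which left replicate 2 as the only day 1 array and its spread to be taken from the other groups, 1 cluster without a gene symbol passed (difference 2.16, adjusted p = 0.044, limma), and its level was below that of the median cluster.

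The 10 genes with the smallest p in this comparison did not pass the test (adjusted p = 1.00 for each, limma), and 8 of them lay below the level of the median cluster. These 8 were the odorant receptor genes Or5b106, Or5ak24, Or4c111 and Or13c9, the vomeronasal receptor gene Vom1r107, Mir741 and 2 uncharacterized loci. Or5b106 had values of 2.81, 2.86, 2.91 and 3.36 on day 3, against 1.97 and 2.17 in replicates 2 and 4 of day 1, a difference of 0.91 ± 0.20 (SE). Mir741 had 3.60, 3.64, 3.87 and 4.46 on day 3, against 2.05 and 2.93, a difference of 1.40 ± 0.31. Both rows of values lay at the dim end of the array. The gene in this set with a level well above the median was Fam149a, a gene of unknown function, with 9.92, 9.52, 9.87 and 9.76 on day 3, against 9.14 and 9.01 in replicates 2 and 4, a difference of 0.69 ± 0.18. However, replicate 3 of day 1 had 9.85, within the range of day 3. The remaining gene, the pseudogene Hsp90b1-ps2, had 6.13, 6.39, 5.91 and 6.26 on day 3, against 6.54 and 6.89, a difference of -0.54 ± 0.14. Pseudogene and receptor probes can share sequence with other family members, so these values are uncertain.

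Gabra6 had the most negative difference of all 22093 genes even without replicates 1 and 3, at -2.21 ± 0.80 (SE), and Neurod1 one of -1.10 ± 0.43, with no overlap between day 3 and replicates 2 and 4 of day 1. The adjusted p was 1.00 for both (limma). Of the 21 granule cell genes, 5 were below replicates 2 and 4 in all day 3 arrays and 1 was above, and the same applied to 5 and 0 of the 20 Purkinje cell genes. Over all genes, 3.53% were below and 7.7% were above in this way. The most positive difference, noted after the values were seen, was that of Slc39a12, a zinc transporter, with 10.47, 10.47, 10.57 and 10.20 on day 3, against 9.52 and 8.13 in replicates 2 and 4 and 9.33 and 10.02 in replicates 1 and 3 of day 1. The difference from replicates 2 and 4 was 1.61 ± 0.50 (adjusted p = 1.00, limma), and the 16 other arrays spanned 7.90 to 10.83.

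**Figure D3:**
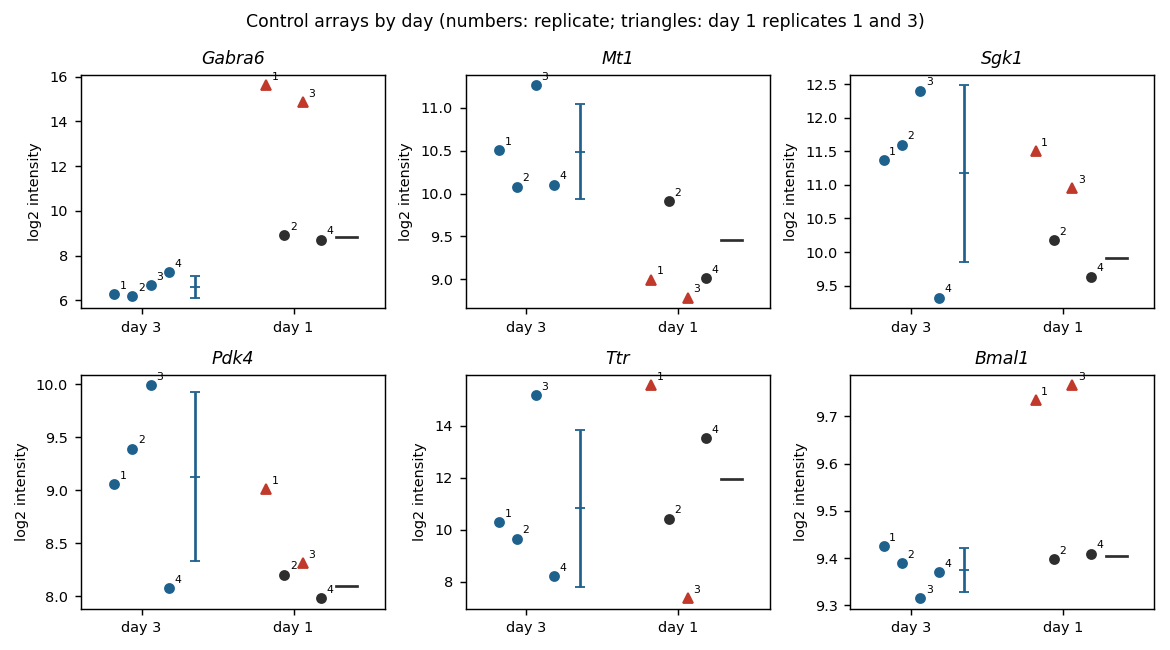
Log2 intensity (y axis) of 6 genes in the control arrays of day 3 and day 1 (x axis), with numbers for the replicate, triangles for day 1 replicates 1 and 3, a bar for the mean ± SD of day 3 (n = 4) and a line for the mean of day 1 replicates 2 and 4. Sgk1 and Pdk4 spread over the day 3 rats from replicate 3 down to replicate 4, and Bmal1 differs from the day 3 level in the triangles.

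Sgk1, Pdk4, Ddit4, Nfkbia and Per1, which glucocorticoids induce, differed widely among the rats of day 3. They are examples, and spreads over the whole list of such genes are not given here. Sgk1, a kinase that corticosterone induces, had values of 11.37, 11.60, 12.40 and 9.32 on day 3, against 11.50, 10.18, 10.95 and 9.63 in replicates 1 to 4 of day 1. Pdk4, pyruvate dehydrogenase kinase 4, had 9.06, 9.39, 9.99 and 8.08 on day 3, against 9.01, 8.20, 8.32 and 7.98 on day 1. In both genes replicate 3 of day 3 was the highest and replicate 4 the lowest of their day, and the day 1 arrays fell inside this range apart from 7.98 for Pdk4 in replicate 4. Ddit4, an inhibitor of mTOR signalling, had 10.19, 10.28, 10.47 and 9.28, against 9.91, 9.54, 9.27 and 9.35, Nfkbia, the inhibitor of NF-kappa-B, had 7.91, 8.37, 8.50 and 6.92, against 8.94, 7.71, 7.74 and 7.22, and Per1, a clock gene with a glucocorticoid response element, had 8.71, 8.86, 9.03 and 7.91, against 8.93, 8.43, 9.08 and 8.25. The same rats were highest and lowest on day 3 in these 3 genes. Against replicates 2 and 4, the differences were 1.26 ± 0.73 (SE) for Sgk1 and 1.04 ± 0.48 for Pdk4, both with an adjusted p of 1.00 (limma). Over the 15 genes of the list, 14 differences were positive with a median of 0.28, compared with 60.1% positive and a median of 0.02 over all genes, and 0 passed the test. With all 4 day 1 arrays, 11 of the 15 were positive with a median of 0.13, compared with 61.6% and 0.04 over all genes. In treated rats, day 3 minus day 1 had a median of -0.19 for the list and 1 positive difference.

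Metallothioneins, small proteins that bind zinc and copper and that glucocorticoids also induce, had positive differences on day 3, none of which passed the test. Mt1 had values of 10.51, 10.08, 11.27 and 10.11 on day 3, against 8.99, 9.91, 8.78 and 9.02 in replicates 1 to 4 of day 1, without overlap. The difference was 1.31 ± 0.40 (SE) with all arrays (adjusted p = 0.45, limma, exact permutation p = 0.029) and 1.03 ± 0.50 against replicates 2 and 4 (adjusted p = 1.00). Mt2A had 15.01, 15.03, 15.37 and 14.55 on day 3, against 14.98, 14.53, 14.29 and 14.22 on day 1, and Mt3, the brain form, had 13.56, 13.44, 13.58 and 13.45, against 12.86, 13.35, 12.92 and 13.46. Replicate 3 of day 3 was the highest of its day in all 4 measured metallothionein genes, the same rat as for Sgk1 and Pdk4. The median difference over the 4 genes was 0.48 with all arrays and 0.62 against replicates 2 and 4, while that of treated rats was -0.36. The summed intensity of the 4 genes lay between 89800 and 173400 on day 3, against 78250 to 121400 on day 1, and spanned 84270 to 218500 in the other 16 arrays.

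Core clock genes had small differences between day 3 and replicates 2 and 4 of day 1, and most of them were higher in the arrays with cerebellar transcripts. Bmal1, the transcriptional activator of the clock, had 9.43, 9.39, 9.32 and 9.37 on day 3, against 9.40 and 9.41 in replicates 2 and 4 and 9.73 and 9.77 in replicates 1 and 3 of day 1. Dbp, a clock output whose level follows the time of day, had 9.34, 9.21, 9.49 and 9.33 on day 3, against 9.47 and 9.33 in replicates 2 and 4 and 9.54 and 9.99 in replicates 1 and 3. Nr1d1, a repressor of Bmal1, had 9.30 and 9.72 in replicates 1 and 3, against at most 8.88 in the other 6 arrays, and Ciart, another repressor of the clock, had 8.25 and 8.17, against at most 7.78. Bmal1 and these repressors were thus high in the same arrays. Of 14 measured core clock genes, 9 were above the other 6 arrays in both replicates, compared with 9.19% of all genes. Of 11 clock output genes, 3 were above and 3 below in both, with median differences of 0.04 in replicate 1 and 0.05 in replicate 3. Over the core clock list the median difference of day 3 from replicates 2 and 4 was 0.04 (range -0.10 to 0.28). That from all 4 day 1 arrays was -0.16. Of 26 entries in the clock lists, 20 had a promoter in the table and 4 of these held CACGTG, namely Ciart with 3 matches and Bhlhe40, Bhlhe41 and Tef with 1 each, whereas 6.42% of all promoters held it. The D-box forms TTATGCAA and TTACGTAA were found in 0 of the 20 and in 0.863% and 0.12% of all promoters.

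Meningeal genes had lower values on day 3 than in replicates 2 and 4 of day 1, but none passed the test. All 14 differences were negative, with a median of -0.57, and in 10 genes no day 3 array reached replicates 2 and 4, against 3.53% of all genes. Ptgds, prostaglandin D synthase, which meninges and choroid plexus secrete, had 16.39, 16.46, 15.16 and 16.77 on day 3, against 17.01 and 17.04 in replicates 2 and 4 and 17.32 and 14.57 in replicates 1 and 3. Ogn, osteoglycin of the meninges, had 11.83, 12.14, 10.61 and 12.51 on day 3, against 12.98 and 12.74 in replicates 2 and 4 and 13.42 and 10.11 in replicates 1 and 3. Both genes were thus lowest in replicate 3 of either day. The 14 genes summed to 95160, 101100, 42190 and 124400 on day 3, against 149500 and 149700 in replicates 2 and 4 and 184100 and 28900 in replicates 1 and 3. Across the 16 other arrays of the series the sum lay between 45260 and 177200, a range that holds replicates 2 and 4. Slc6a13, a GABA and taurine transporter, had a difference of -1.10 and Ogn one of -1.09, and with all 4 day 1 arrays the median of the list was -0.35 with 0 genes separated (0.824% of all genes). In treated rats the list went the other way, with a median of 0.14 and 13 positive differences.

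Hox genes and genes of motor neurons differed from replicates 2 and 4 in opposite directions, and none passed the test. Of 18 Hox genes, 17 had a lower mean on day 3 than in replicates 2 and 4, with a median difference of -0.26. Over all genes, 60.1% of these differences were positive. In 3 of the 18 Hox genes all day 3 arrays lay below both replicates, compared with 3.53% of all genes. Hoxb5, a gene of the caudal medulla, had 7.82, 8.32, 7.21 and 6.63 on day 3, against 8.42 and 7.81 in replicates 2 and 4, so that replicate 2 was the highest array. Hoxb8 had 6.28, 6.59, 5.80 and 5.52, against 7.19 and 5.44. With all 4 arrays the median was 0.34 and 17 of 18 were positive, compared with 61.6% of all genes. The direction thus turned with replicates 1 and 3. Genes of motor and cholinergic neurons were higher on day 3 in both comparisons, with medians of 0.62 with all arrays and 0.32 against replicates 2 and 4, where 9 of 10 were positive. Chat, choline acetyltransferase, had 9.00, 9.20, 8.68 and 9.07 on day 3, against 8.52 and 8.78 in replicates 2 and 4 and 7.64 and 7.57 in replicates 1 and 3. Calcb, a calcitonin gene-related peptide of motor neurons, had 7.71, 7.78, 7.46 and 7.73, against 7.14 and 7.39 in replicates 2 and 4 and 6.85 and 6.75 in replicates 1 and 3. In Calcb the day 3 arrays lay above all day 1 arrays, while in Chat they overlapped replicate 4. In all, 4 of the 10 genes of the list were above replicates 2 and 4 in this way, compared with 7.7% of all genes, and 4 were above all day 1 arrays, compared with 3.78%.

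Genes of respiration and protein folding had small positive differences, none of which passed the test. Of 28 measured genes of complex I, the target of rotenone, 28 had positive differences on day 3 with all arrays, with a median of 0.19, and 27 against replicates 2 and 4, with a median of 0.09. Ndufa1 had 10.72, 10.44, 10.66 and 10.65 on day 3, against 10.43 and 10.45 in replicates 2 and 4 and 9.89 and 9.69 in replicates 1 and 3. In treated rats 27 of the 28 were positive too, with a median of 0.11. Positive differences were found for 61.6% of all genes with all control arrays, for 60.1% against replicates 2 and 4 and for 56.8% in treated rats. Among 15 cytosolic heat shock genes 15 were positive with all arrays and 14 against replicates 2 and 4, with medians of 0.19 and 0.11. Bag3, a co-chaperone, had 9.92, 9.43, 9.72 and 9.66 on day 3, against 9.48 and 9.31 in replicates 2 and 4 and 9.01 and 8.47 in replicates 1 and 3. Both lists were low in replicates 1 and 3, with 19 of 28 complex I genes and 14 of 15 heat shock genes below the other 6 arrays in both, compared with 15.5% of all genes. The cold-induced RNA-binding genes Rbm3 and Cirbp had negative differences. Rbm3 had 9.17, 9.25, 9.08 and 8.84 on day 3, against 9.41 and 9.24 in replicates 2 and 4 and 9.76 and 9.86 in replicates 1 and 3, and Cirbp had 9.40, 9.46, 9.42 and 9.33, against 9.54 and 9.49 in replicates 2 and 4 and 9.67 and 9.71 in replicates 1 and 3. For Cirbp the day 3 arrays lay below all day 1 arrays (exact permutation p = 0.029, adjusted p = 0.55 by limma).

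**Figure D4:**
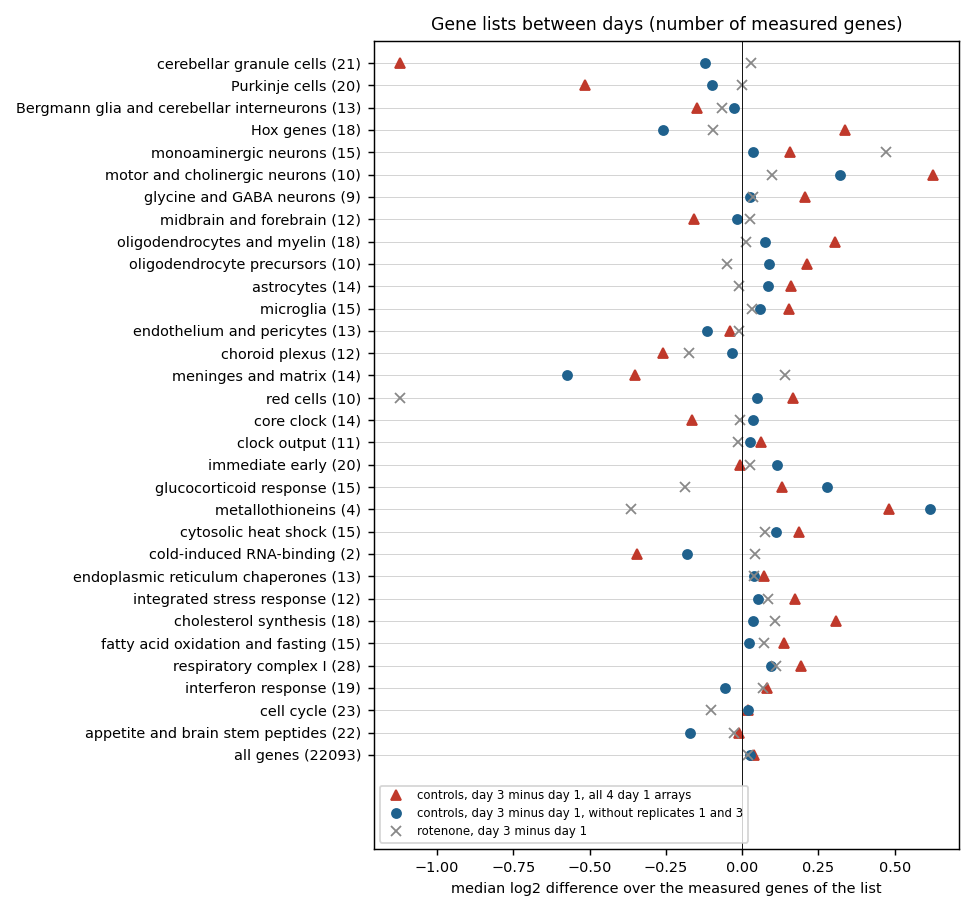
Median log2 difference between day 3 and day 1 (x axis) over the measured genes of 31 lists and over all genes (y axis, with their number), for controls with all 4 day 1 arrays (triangles), for controls without replicates 1 and 3 (circles) and for rotenone-treated rats (crosses). Red triangles lie to the left for the cerebellar lists. The granule cell list lies at -1.12 with all arrays and at -0.12 without replicates 1 and 3, and the meningeal list lies at -0.57 without them.

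Against replicates 2 and 4, other medians were 0.08 for oligodendrocytes, 0.09 for astrocytes, 0.06 for microglia, -0.12 for endothelium and pericytes, 0.05 for red cells and 0.04 for monoaminergic neurons. Tph2 differed by 0.08 and Slc6a4 by 0.10, with replicate 4 of day 3 above the others at 12.32 and 11.17. Immediate early genes had a median of 0.11, and Fos, the most used marker of recent activity, had 7.54, 7.02, 7.47 and 7.41 on day 3, against 7.51 and 6.84 in replicates 2 and 4. Peptide genes of appetite and of the brain stem had a median of -0.17, with 4 of 22 positive, compared with 60.1% of all genes, and 4 of 22 were below both replicates in all day 3 arrays, compared with 3.53% of all genes. Nts, neurotensin, had 8.57, 8.18, 8.06 and 7.85 on day 3, against 9.08 and 8.34 in replicates 2 and 4, so that the days overlapped. Penk, the enkephalin precursor, had 12.37, 12.34, 12.19 and 11.59, against 12.55 and 12.10, with replicate 4 the lowest of day 3. Cholesterol synthesis genes had a median of 0.31 with all arrays and of 0.03 against replicates 2 and 4.

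Treated rats gave a second comparison of day 3 with day 1 that shared no arrays with the controls, only the estimate of the spread. Treated rats of day 3 had also eaten rotenone for longer than those of day 1. Day of necropsy and length of exposure therefore cannot be told apart in them. There too 0 clusters passed limma, with 3067 clusters (4.46%) at an unadjusted p under 0.05 and 3513 without moderation. Day 3 lay above day 1 without overlap in 1.57% of clusters and below it in 1.36%. The gene with the smallest p was Slc18a2, the vesicular monoamine transporter, with 9.20 ± 0.27 on day 3 and 8.16 ± 0.41 on day 1 (SD, n = 4 each). In controls without replicates 1 and 3, Slc18a2 differed by 0.08. Tph2 and Slc6a4 had differences of 2.76 ± 0.81 and 2.11 ± 0.59 (SE) in treated rats (adjusted p = 1.00, limma), and the list of 15 monoaminergic genes had a median of 0.47, compared with 0.04 in these controls. The red cell list had a median of -1.12 in treated rats and of 0.05 in these controls. Of the 1656 clusters with an unadjusted p under 0.05 in controls without replicates 1 and 3, 54.0% had the same sign in treated rats, compared with 54.2% of all clusters. The difference of the differences passed for 0 clusters, with 1732 (2.52%) at an unadjusted p under 0.05 and 1666 without moderation. The smallest p was that of Vom1r107, a difference of 1.32 ± 0.26 (SE) at a level below the median cluster (adjusted p = 1.00, limma).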

How the data were processed

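RNA of 24 rat brain stems was measured on Affymetrix RTA 1.0 arrays. The deposited intensities were linear values that the authors made with GC correction, signal space transformation and RMA, and log2 was taken here without further normalization. Scan dates and cages per rat were not given in the sources used here. Of 70580 rows, 1738 control probe sets were left out. Of 68842 transcript clusters, 23446 had 1 gene symbol in the platform annotation, 505 had several and 44891 had none, and 1 symbol was updated through RefSeq (GRCr8). A gene was its cluster with the highest mean. Members and gene lists were chosen with earlier results of these data known.

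Group means of all 6 groups were fitted with limma 3.58.1 (R 4.3.3), once to 24 arrays and once to 22 without control day 1 replicates 1 and 3, and p-values were adjusted by Benjamini-Hochberg over 68842 clusters with a threshold of 0.05. Named were the 10 genes with the smallest p per comparison and the 15 genes with the largest gap in each direction, beside the listed genes and those said to be chosen after their values were seen. Single genes were also tested with exact two-sided permutation tests (Python 3.11.15). On simulated intensities the fits were checked for recovery of set differences. Alternatives were other normalizations, priors, filters, sample sets, a replicate block, array weights, thresholds adapted from the study, and leaving out each array. Replicate numbers were not treated as pairs in the main fits.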

Additional observations from a re-analysis of the deposited data

Results flagged for a closer look

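In 92 groups of 4 arrays (46 named genes on days 3 and 1), 6 groups had 1 array far from the others by Dixon's ratio of the gap to the range, and chance gives about 1 in 20 groups. All 6 were day 3 groups, and the distances were small in absolute terms. Most of the 46 genes were named because day 1 replicates 1 and 3 both lay on one side of replicates 2 and 4. Such a split leaves little room for 1 array alone to stand apart. The rate of 1 in 20 is therefore no fair measure for these day 1 groups, and the count cannot compare the days. Car8, the Purkinje cell gene, was highest in replicate 3 (ratio 0.876, with a value of 8.36, a nearest value of 8.06 and an opposite end of 8.02). Ppp1r17, also of Purkinje cells, was lowest in the same replicate (ratio 0.857, 7.13 against a nearest value of 7.41). Pcp2 was lowest in replicate 4 (ratio 0.873, 5.83 against 6.13), and Eomes was highest in replicate 4 (ratio 0.883, 5.99 against 5.69). Cnpy1 was lowest in replicate 2 (ratio 0.885, 5.75 against 6.06). The odorant receptor gene Or13c9 was highest in replicate 3 (ratio 0.843, 4.09 against 3.84).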

How the results depend on the processing

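The tests of day 3 against day 1 gave 0 clusters under each alternative normalization, prior, filter, set of arrays and array weighting, and with the replicate block (0 in controls with all arrays, in controls without replicates 1 and 3, in treated rats and for the difference of the differences). Leaving out 1 array at a time gave 0 to 231 clusters with all controls, the 231 without day 1 replicate 4, 0 to 1 without replicates 1 and 3, and 0 in treated rats and for the difference of the differences. With thresholds adapted from the study to the comparison of days (an unmoderated p under 0.001 in place of its ANOVA terms, a Kruskal-Wallis p under 0.05 between days and a 1.8-fold ratio), 12 clusters passed with all controls. Without day 1 replicate 4, 122 genes passed. Of the genes named for the smallest p with all controls, these included Or5ak24, Uts2, Cox4i1, Gabra6, Guk1, Maf and Car8 (adjusted p = 0.033 each, limma). The day 1 arrays left in this setting include replicates 1 and 3, which were set apart for cerebellar transcripts. The p-values of cerebellar genes such as Gabra6 and Car8 thus rest on the values used for that choice and cannot test the day. Clusters set apart in control day 1 replicates 1 and 3 numbered 52 higher and 2 lower at a gap of 2, and 761 and 160 at 0.5. With replicate 3 alone they numbered 818 and 183, with replicate 1 alone 67 were lower, and against the other 22 arrays 0 were lower. Replicate numbers correlated between -0.0846 and 0.273 over arrays of the same number. Correlations over arrays of different numbers are not given for comparison, so it was not settled whether the numbers pair the arrays. Of 1209 list medians under alternatives, 53 moved and 1156 did not. With 4 arrays against 2, only large and even differences could pass, and clusters below the median level rest on weak signal. The settings with 1 of the 2 arrays alone and with identical clusters kept once, and the motifs other than those of the clock, were chosen after the data were seen.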
